A study of Mus musculus with 9 samples.

Results

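The laminin chains are 9 genes (Lama2, Lama3, Lama4, Lama5, Lamb1, Lamb2, Lamb3, Lamc1 and Lamc3), chosen by symbol from the 20655 genes of the deposited tables and described across 3 sorted cell populations. The cells came from digested subcutaneous fat, inguinal and axillary depots together, of C57BL/6 mice aged 12 days of mixed sex and were sorted by flow cytometry, and no mutation or treatment was named for any group. The DPP4+, ICAM1+ and CD142+ populations were each profiled by messenger RNA sequencing in 3 libraries, 9 in all. DPP4 cleaves peptides at the cell surface, ICAM1 binds leukocyte integrins, and CD142 (tissue factor, gene F3) starts blood clotting. Each table compares 2 populations. Single libraries were not analysed here, and their spread enters only through the standard errors (SE) of the deposited fit. The labels name no animal behind a library, so the p-values measure only the spread between these libraries, which may be technical.

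The sort genes were read first as a check of the labels. The fitted level of Dpp4 was 5466 normalised counts in DPP4+, 89.9 in ICAM1+ and 729 in CD142+ cells. F3 had 243, 310 and 1469 in the same order, which followed the CD142 label. Icam1 had 1162, 7966 and 7058, and ICAM1+ and CD142+ cells were not called different for it (log2 fold change 0.17 ± 0.15, adjusted p = 0.631), so at the RNA level Icam1 separated both populations from DPP4+ cells but not from each other. The stromal collagen and proteoglycan genes were abundant in all 3 populations, and the 6 stromal markers (Pdgfra, Dcn, Lum, Col1a1, Col1a2 and Apod) had deposited means between 641 and 451439.

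Laminins are large cross-shaped proteins of basement membranes, built from 1 alpha, 1 beta and 1 gamma chain that join in the cell before secretion. They polymerise into a sheet on the cell surface, to which nidogen, perlecan and type IV collagen are linked, and the globular end of the alpha chain binds integrins and dystroglycan. The alpha chain sets much of the binding: the product of Lama2 is typical of muscle and nerve, that of Lama4 and Lama5 of vessel walls, and that of Lama3 of epithelia, where it pairs with the product of Lamb3. Lamc1 encodes the gamma chain shared by most laminins. Around fat cells a laminin-rich basement membrane forms as the cells mature.

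All 9 chains had an adjusted p in every comparison, so none was lost to the filter on low values. They covered a wide range of expression. Lamc1 had the highest deposited mean, 15336 normalised counts, rank 44 of all genes. Lama2 (9759), Lamb1 (9589), Lama4 (4852) and Lamb2 (4766) were also abundant. Lama5 had a mean of 439, whereas Lamb3 (70.2), Lama3 (54.9) and Lamc3 (11.9) had means under 100 and wider errors. Together the 9 chains held 0.497% of the summed means of all genes.

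In outline, Lama2 did not differ between the populations beyond its error, and Lama5 and Lama3 were higher in ICAM1+ cells than in both others. Lamb3 was higher in DPP4+ cells than in both others. The 2 abundant beta chains moved in opposite directions in the comparisons with CD142+ cells. In CD142+ cells Lama4, Lamb1 and Lamc1 were lower than in DPP4+ cells, and Lamb2 was higher. The plot of fitted levels shows these patterns on 1 scale. A fitted level is the normalised count per population implied by the deposited mean and fold changes, and its 95% interval comes from the standard errors of the 3 comparisons. In sorted bulk samples, fewer cells that transcribe a chain and less of its RNA per cell cannot be told apart.

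**Figure D1:**
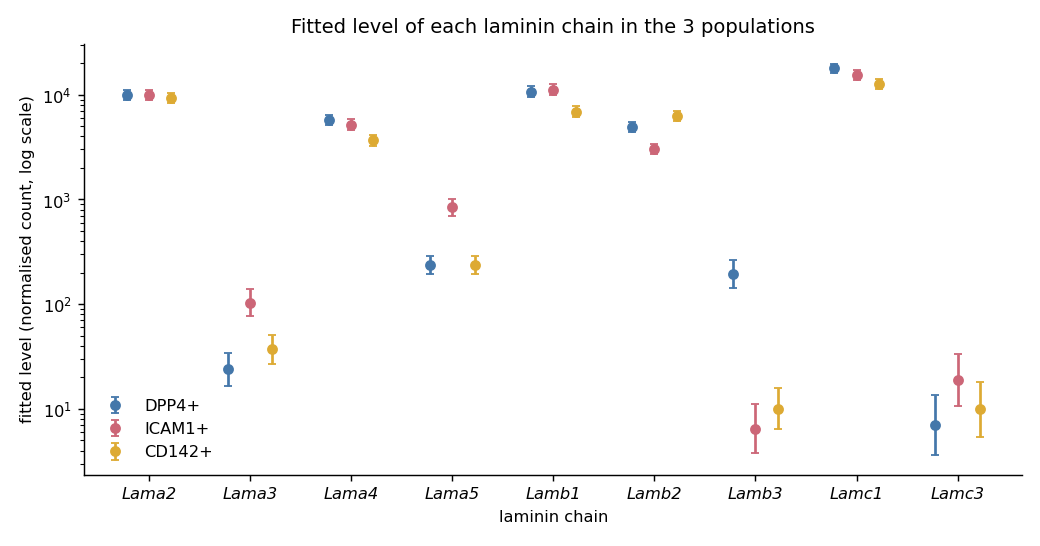
Fitted level (normalised count, log scale) of each laminin chain in DPP4+, ICAM1+ and CD142+ cells, with points for the fitted level and bars for its 95% interval from the deposited standard errors. Lama5 and Lama3 were highest in ICAM1+ cells (843 and 104), Lamb3 in DPP4+ cells (194), and Lama2 lay between 9332 and 10044 in all populations. Levels of different chains on this axis are not corrected for length.

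The genes lie on 6 chromosomes in mm10 (GENCODE M21), with Lamc1 and Lamb3 both on chromosome 1. Lamc1 spans 153218922 to 153332786 on the minus strand and Lamb3 193207699 to 193343878 on the plus strand. Lamc3 (31887291 to 31946539, plus) and Lama5 (180176373 to 180225859, minus) are on chromosome 2, and Lama2 (26980036 to 27619758, minus) and Lama4 (38965515 to 39110188, plus) on chromosome 10. Lamb2 is on chromosome 9 from 108479736 to 108490530 (plus), Lamb1 on chromosome 12 from 31265234 to 31329644 (plus) and Lama3 on chromosome 18 from 12333819 to 12583013 (plus). Lama2 had the longest span with 639723 bases and Lamb2 the shortest with 10795. Opposite-strand exons of another gene covered 6.27% of the exon bases of Lamc3, 3.86% of Lama2 and 1.83% of Lama3, and none of the other 6 chains. Reads from such stretches cannot be assigned where the strand is unknown.

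The deposited means given above are not corrected for length, so the chains were next compared with each other per kilobase (kb) of exon. On this scale Lamc1 was the most abundant chain in every population, with 2168 normalised counts per kb in DPP4+, 1863 in ICAM1+ and 1531 in CD142+ cells. Lamb1 had 1077, 1128 and 696, and Lamb2 had 816, 499.8 and 1035 per kb. Among alpha chains Lama2 (615, 606 and 571 per kb) was ahead of Lama4 (473, 428 and 304). Per kb of coding sequence that lead was small in DPP4+ cells (1074 against 1048). Lama5 stood far below both at 20.7, 74.0 and 20.9 per kb of exon. The remaining chains had at most 29.3 per kb of exon in any population, which was Lamb3 in DPP4+ cells.

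Promoter sequences are shown for the chains with the most distinct patterns, which are Lama5, Lamb1, Lamb2 and Lamb3. Lama5 was highest in ICAM1+ cells and Lamb3 in DPP4+ cells, and Lamb1 and Lamb2 moved oppositely in the comparisons with CD142+ cells. The sequences are bases before the transcription start in the RefSeq table for GRCm38.p6, the assembly of mm10, and stop before the first base that the annotation places in an exon of the gene. For Lamb3 the annotated gene begins far upstream of the RefSeq start, so its window lies inside the annotated span, outside its exons. Capitals mark the GC box (GGGCGG) and the CCAAT box (CCAAT), searched on both strands. The windows are chr2:180225860-180226109 (minus strand) for Lama5, chr12:31265043-31265233 (plus) for Lamb1, chr9:108479612-108479735 (plus) for Lamb2 and chr1:193301744-193301992 (plus) for Lamb3.
Lama5: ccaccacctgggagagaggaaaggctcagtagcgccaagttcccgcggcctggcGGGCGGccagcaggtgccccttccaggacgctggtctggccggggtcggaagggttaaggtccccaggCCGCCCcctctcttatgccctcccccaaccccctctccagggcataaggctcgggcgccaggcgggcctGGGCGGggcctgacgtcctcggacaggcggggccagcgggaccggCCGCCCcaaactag
Lamb1: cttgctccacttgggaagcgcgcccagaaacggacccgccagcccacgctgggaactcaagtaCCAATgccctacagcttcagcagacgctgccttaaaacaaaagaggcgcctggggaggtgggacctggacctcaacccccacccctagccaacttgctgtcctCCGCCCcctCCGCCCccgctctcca
Lamb2: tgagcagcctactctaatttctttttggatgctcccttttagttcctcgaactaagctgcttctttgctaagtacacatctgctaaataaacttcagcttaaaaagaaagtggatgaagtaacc
Lamb3: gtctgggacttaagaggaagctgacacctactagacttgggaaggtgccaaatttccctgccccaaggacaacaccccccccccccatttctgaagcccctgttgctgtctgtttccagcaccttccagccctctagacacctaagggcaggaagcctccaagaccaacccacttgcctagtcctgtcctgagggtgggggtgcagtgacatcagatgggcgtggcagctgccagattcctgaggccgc

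Over the full 250 bases before the start, Lama5 held 4 GC boxes and Lamb1 2 GC boxes and 1 CCAAT box. Lamb2, Lama2 and both listed windows of Lamb3 held neither. Of 32851 windows of the same length in the table, 32.7% held a GC box and 33.8% a CCAAT box. No TATA box (TATAAA) and no AP-1 motif (TGANTCA) was found in the windows of these 5 chains, against 12.4% and 6.75% of all windows. The base composition differed between the beta chains, with 62.0% G and C for Lamb1 and 43.6% for Lamb2, against a median of 52.4% over all windows. These full windows include annotated exon bases of the gene. Of the 250 bases, 191 lay before the first such base for Lamb1, 124 for Lamb2 and 0 for the second Lamb3 window. A match in such letters is a description of the sequence and does not show that a factor binds there.

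The comparison of ICAM1+ with DPP4+ cells asked in which chains these populations differ. Of the 9 chains, 4 were called at an adjusted p below 0.05, where 24.4% of all tested genes were called. Lama3 and Lama5 were higher (12.4% of all genes were called higher) and Lamb2 and Lamb3 were lower (12% of all genes were called lower). The median log2 fold change of the 9 chains was -0.02, against 0.02 over all tested genes. Their median absolute log2 fold change was 0.71, against 0.43 over all tested genes and 0.31 over the 7952 genes whose mean reached 100.

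For CD142+ against DPP4+ cells, 5 chains were called, where 19% of all tested genes were called. Lamb2 was higher (10.1% of all genes called higher) and Lama4, Lamb1, Lamb3 and Lamc1 were lower (8.91% called lower). The median log2 fold change was -0.11, against -0.01 over all tested genes, and the median absolute value was 0.50 against 0.34. Only Lamb3 among these calls had an absolute log2 fold change above 1. The fold changes of the other 4 were between -0.64 and 0.34.

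Between ICAM1+ and CD142+ cells, 5 chains were called, where 9.05% of all tested genes were called. Lama3, Lama4, Lama5 and Lamb1 were higher in ICAM1+ cells (3.77% of all genes called higher), and Lamb2 was lower (5.28% called lower). The median log2 fold change was 0.49, against 0.00 over all tested genes, and the median absolute value was 0.70 against 0.25. The 3 comparisons share their libraries in pairs, so their calls do not stand as separate evidence.

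**Figure D2:**
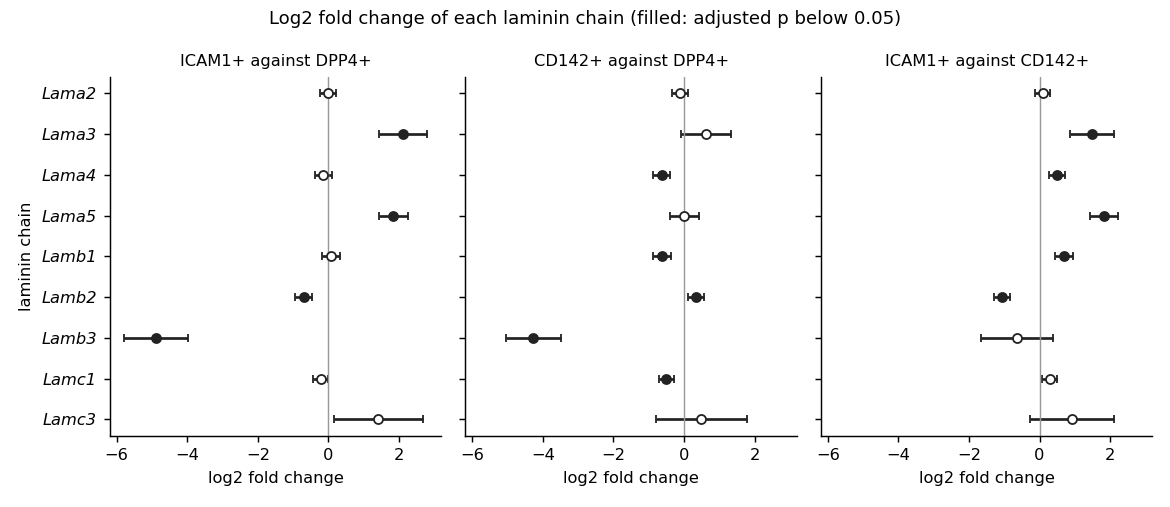
Log2 fold change of each laminin chain in the 3 comparisons, with bars for the 95% interval and filled points for an adjusted p below 0.05. Lama2 and Lamc3 have open points in all panels, Lamb3 lies at -4.90 and -4.27 against DPP4+ cells, and Lamb2 and Lamb1 fall on opposite sides of 0 in the middle and right panels.

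The alpha chain Lama2 (ENSMUSG00000019899.16), known for its part in muscle and nerve basement membranes, had fitted levels of 10044 in DPP4+, 9900 in ICAM1+ and 9332 in CD142+ cells. The 3 intervals overlapped widely. Its log2 fold changes were -0.02 ± 0.11 (SE) in ICAM1+ and -0.11 ± 0.11 in CD142+ against DPP4+ cells, with 95% intervals from -0.25 to 0.20 and from -0.33 to 0.12 (adjusted p = 0.934 and 0.64). Between ICAM1+ and CD142+ cells the value was 0.09 ± 0.11 (adjusted p = 0.803). In folds, the interval for CD142+ against DPP4+ cells ran from 0.795 to 1.09 and that for ICAM1+ against CD142+ cells from 0.908 to 1.24.

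Lama4 (ENSMUSG00000019846.11), the alpha chain of endothelial and adipocyte basement membranes, had 5710 normalised counts in DPP4+, 5171 in ICAM1+ and 3675 in CD142+ cells. The interval of CD142+ cells (3274 to 4124) lay below those of the other populations. Its log2 fold change was -0.64 ± 0.12 in CD142+ against DPP4+ cells (adjusted p = 1.8e-06) and 0.49 ± 0.12 in ICAM1+ against CD142+ cells (adjusted p = 0.001). In ICAM1+ against DPP4+ cells it was -0.14 ± 0.12, with an interval from -0.38 to 0.09 (adjusted p = 0.443). So DPP4+ and ICAM1+ cells, neighbours in the order, did not differ beyond their error, and CD142+ cells were lowest.

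Lama5 (ENSMUSG00000015647.9), which encodes the broadly expressed alpha chain of mature basement membranes, had 235 normalised counts in DPP4+, 843 in ICAM1+ and 238 in CD142+ cells. ICAM1+ cells stood alone, with an interval of 696 to 1021, and the other populations were nearly equal. The fold change was 3.58 for ICAM1+ against DPP4+ (log2 1.84 ± 0.20, adjusted p = 1.05e-17) and 3.55 against CD142+ cells (log2 1.83 ± 0.20, adjusted p = 8.3e-17). For CD142+ against DPP4+ cells the log2 fold change was 0.01 ± 0.21, with an interval from -0.40 to 0.42 (adjusted p = 0.983).

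Lama3 (ENSMUSG00000024421.16), the alpha chain of epithelial laminin, was much less abundant, with 23.9 normalised counts in DPP4+, 104 in ICAM1+ and 37.0 in CD142+ cells. It shared the high level in ICAM1+ cells with Lama5. Its log2 fold change was 2.11 ± 0.34 in ICAM1+ against DPP4+ cells (4.33-fold, adjusted p = 1.42e-08) and 1.48 ± 0.32 against CD142+ cells (2.80-fold, adjusted p = 0.000143). CD142+ and DPP4+ cells were not called different (0.63 ± 0.36, interval -0.07 to 1.33, adjusted p = 0.25).

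Markers of several other cell types were also higher in ICAM1+ cells, and the values are given here because Lama5, Lama4 and Lama3 are also transcribed in vessels, nerve sheath or epithelium. Of 10 endothelial markers, 6 were higher in ICAM1+ than in DPP4+ cells and none lower, and their summed fitted level was 3083 in DPP4+, 4608 in ICAM1+ and 2928 in CD142+ cells. Of 8 Schwann cell markers 6 were higher, with summed levels of 1300, 2767 and 1109 in the same order. Of 10 mural markers 5 were higher and 1 lower, with sums of 2862, 10673 and 6620. Of 8 epithelial markers 5 were higher, with sums of 113, 277 and 167, and of 8 adipocyte markers 5 were higher, with sums of 313, 738 and 426. Over all tested genes, 12.4% were called higher and 12% lower in ICAM1+ against DPP4+ cells.

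The sums rose from DPP4+ to ICAM1+ cells by 1.49-fold for the endothelial, 2.13-fold for the Schwann cell, 3.73-fold for the mural, 2.45-fold for the epithelial and 2.36-fold for the adipocyte list, beside 3.58-fold for Lama5 and 4.33-fold for Lama3. Single defining genes ranged widely. Pecam1, an endothelial adhesion molecule, had a log2 fold change of 0.53 ± 0.15, Sox10, a Schwann cell regulator, 2.43 ± 0.60, and Krt14, a basal keratin, 6.06 ± 1.32 at a mean of 10.1. No marker of these lists had a deposited mean of 0, and Trp63, a regulator of basal epithelium, had a mean of 2.09. Immune markers gave no call in this comparison (0 of 10 by the deposited DESeq2 test, 4 at an unadjusted p below 0.05, sums of 244 in DPP4+, 421 in ICAM1+ and 291 in CD142+ cells), and 1 of 7 measured skeletal muscle markers was higher (sums of 97.3, 123 and 86.1). Mesothelial markers had sums of 139, 40.1 and 72.1, with 1 of 5 lower, and Krt19 made up 125, 31.5 and 54.6 of these sums. Against CD142+ cells, ICAM1+ cells were higher for 7 endothelial, 6 Schwann cell, 6 mural, 2 epithelial and 3 adipocyte markers, and lower for 2 mural markers. Over all tested genes, 3.77% were called higher and 5.28% lower in that comparison. The 6 stromal markers themselves had a lower sum in ICAM1+ cells, with 605557 against 983800 in DPP4+ and 1052589 in CD142+ cells. Col1a1 and Col1a2 made up most of these sums (508937 and 428605 in DPP4+ cells). In ICAM1+ against DPP4+ cells 4 of the 6 were lower and 1 higher, the latter Pdgfra (0.36 ± 0.11). Against CD142+ cells 4 were lower and 0 higher. The part of other cell types in the levels of Lama5 and Lama3 was not tested.

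**Figure D3:**
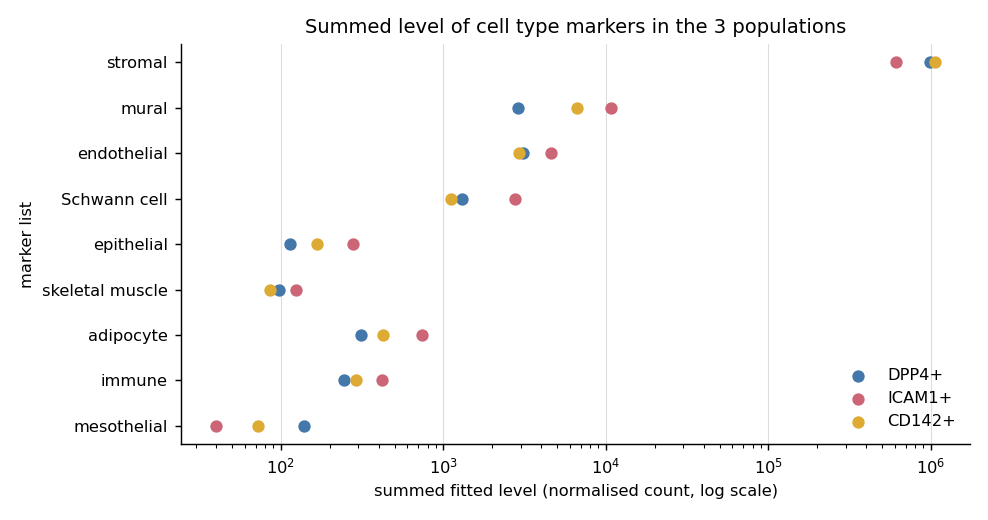
Summed fitted level (normalised count, log scale) of the markers of 9 cell types, with 1 point per population. The endothelial, Schwann cell, mural, epithelial and adipocyte sums are highest in ICAM1+ cells. The stromal sum, most of which is Col1a1 and Col1a2, is lowest there (605557).

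Among beta chains, Lamb1 (ENSMUSG00000002900.16), the beta chain of most embryonic and vascular laminins, had 10685 normalised counts in DPP4+, 11183 in ICAM1+ and 6900 in CD142+ cells. CD142+ cells were lowest, with an interval of 6094 to 7812 that met neither of the others. The log2 fold change was -0.63 ± 0.13 in CD142+ against DPP4+ cells (adjusted p = 1.44e-05) and 0.70 ± 0.13 in ICAM1+ against CD142+ cells (adjusted p = 3.46e-06). ICAM1+ and DPP4+ cells differed by 0.07 ± 0.13, with an interval from -0.19 to 0.32 (adjusted p = 0.787).

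Lamb2 (ENSMUSG00000052911.9), the beta chain of synaptic, kidney and vascular smooth muscle laminins, gave the reverse order of fitted levels, with 4964 normalised counts in DPP4+, 3040 in ICAM1+ and 6296 in CD142+ cells. It was the only chain called in all 3 comparisons. Its log2 fold change was -0.71 ± 0.12 in ICAM1+ against DPP4+ cells (adjusted p = 1.76e-08) and -1.05 ± 0.12 in ICAM1+ against CD142+ cells (adjusted p = 2.94e-17). The rise in CD142+ over DPP4+ cells was smaller, at 0.34 ± 0.12 (1.27-fold, adjusted p = 0.0187), and was not called at an adjusted p below 0.01. Mural markers, of the cells that wrap vessels, had summed levels of 2862 in DPP4+, 10673 in ICAM1+ and 6620 in CD142+ cells. In ICAM1+ against CD142+ cells 6 of the 10 were higher and 2 lower, the latter Kcnj8 (-1.83 ± 0.24) and Abcc9 (-0.94 ± 0.17), subunits of a vascular potassium channel. The part of mural cells in the level of Lamb2 was not tested.

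The balance of these 2 beta chains therefore differed between populations. Lamb2 over Lamb1, per kb of exon, was 0.757 in DPP4+ cells (95% interval 0.641 to 0.895), 0.443 in ICAM1+ cells (0.375 to 0.524) and 1.49 in CD142+ cells (1.26 to 1.76). The intervals did not overlap. They treat the errors of both genes as independent and carry no test. Between CD142+ and ICAM1+ cells the ratio changed 0.298-fold in ICAM1+ relative to CD142+ cells (interval 0.235 to 0.377), a value that does not depend on gene length. Which chain is ahead within a population does depend on it: per kb of coding sequence the ratios were 0.474, 0.277 and 0.930, so Lamb2 exceeded Lamb1 in CD142+ cells only per exon length.

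Lamb3 (ENSMUSG00000026639.18), the beta chain of epithelial laminin, had 194 normalised counts in DPP4+ cells, 6.49 in ICAM1+ cells and 10.1 in CD142+ cells. DPP4+ cells stood alone, and the other populations were near the low end of what was counted. The level was 29.9-fold lower in ICAM1+ than in DPP4+ cells (log2 -4.90 ± 0.46, adjusted p = 1.59e-24) and 19.3-fold lower in CD142+ than in DPP4+ cells (log2 -4.27 ± 0.40, adjusted p = 2.34e-24). ICAM1+ and CD142+ cells were not called different (-0.63 ± 0.52, interval -1.65 to 0.38, adjusted p = 0.602). These were the largest absolute fold changes among the 9 chains, and they held against a log2 fold change of 1 as well.

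Lama3 and Lamb3, whose products pair in epithelial laminin, thus had opposite orders. Lama3 was lowest in DPP4+ cells, where Lamb3 was highest. The epithelial marker sum was 113 in DPP4+, 277 in ICAM1+ and 167 in CD142+ cells, of which Itgb4 made up 86.8 in DPP4+ cells. Krt19, a keratin of the mesothelial list, had 125, 31.5 and 54.6 in the same order. Of the 5 measured markers of that list, 4 had means under 10. Among these, the fitted level was highest in DPP4+ cells for Wt1 (9.93) and Upk3b (1.23), in CD142+ cells for Msln (8.74) and in ICAM1+ cells for Lrrn4 (5.03). None of these 4 genes was called in any comparison. The part of epithelial or mesothelial cells in the level of Lamb3 was not tested. Lama1, the chain of early embryonic laminin, had a mean of 2.36 and no adjusted p in any comparison.

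Lamc1 (ENSMUSG00000026478.14), the common gamma chain, had 17934 normalised counts in DPP4+, 15409 in ICAM1+ and 12664 in CD142+ cells. The levels stepped down in that order, but only the ends were called different. The log2 fold change was -0.50 ± 0.10 in CD142+ against DPP4+ cells (adjusted p = 2.22e-05). The neighbouring steps were -0.22 ± 0.10 in ICAM1+ against DPP4+ cells (adjusted p = 0.118) and 0.28 ± 0.10 in ICAM1+ against CD142+ cells (adjusted p = 0.0684).

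Lamc3 (ENSMUSG00000026840.14), a gamma chain known from brain, retina and skin nerves, had 7.03 normalised counts in DPP4+, 18.8 in ICAM1+ and 9.92 in CD142+ cells. The values are low and their intervals overlap. Its log2 fold change of 1.42 ± 0.64 in ICAM1+ against DPP4+ cells did not pass (interval 0.16 to 2.68, adjusted p = 0.0945), nor did 0.50 ± 0.66 in CD142+ against DPP4+ cells (adjusted p = 0.721). The interval for ICAM1+ against DPP4+ cells ran from 1.12-fold to 6.40-fold, so the data set only a loose limit for this chain.

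Within each class, the shares of the chains were computed per kb of exon. Lama2 held 55.3% of the alpha chain transcripts in DPP4+, 54.2% in ICAM1+ and 63.5% in CD142+ cells, and Lama4 42.6%, 38.3% and 33.8%. Lama5 held 1.86%, 6.62% and 2.32%, and Lama3 0.201%, 0.862% and 0.383%. Per kb of coding sequence the share of Lama5 was 0.984%, 3.61% and 1.26%, since the annotated exons of Lama2 and Lama4 are much longer than their coding parts. Lamb1 held 56.0%, 69.2% and 40.2% of the beta chain transcripts and Lamb2 42.4%, 30.7% and 59.8%. Per kb of coding sequence Lamb1 held 66.6%, 78.2% and 51.7% and Lamb2 31.5%, 21.7% and 48.1%, so the order in CD142+ cells turned with the length used. Lamb3 held 1.53% in DPP4+ and 0.0603% and 0.0879% in ICAM1+ and CD142+ cells. Lamc1 made up at least 99.8% of the gamma chain transcripts of the list in every population. These shares are descriptions with no test.

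**Figure D4:**
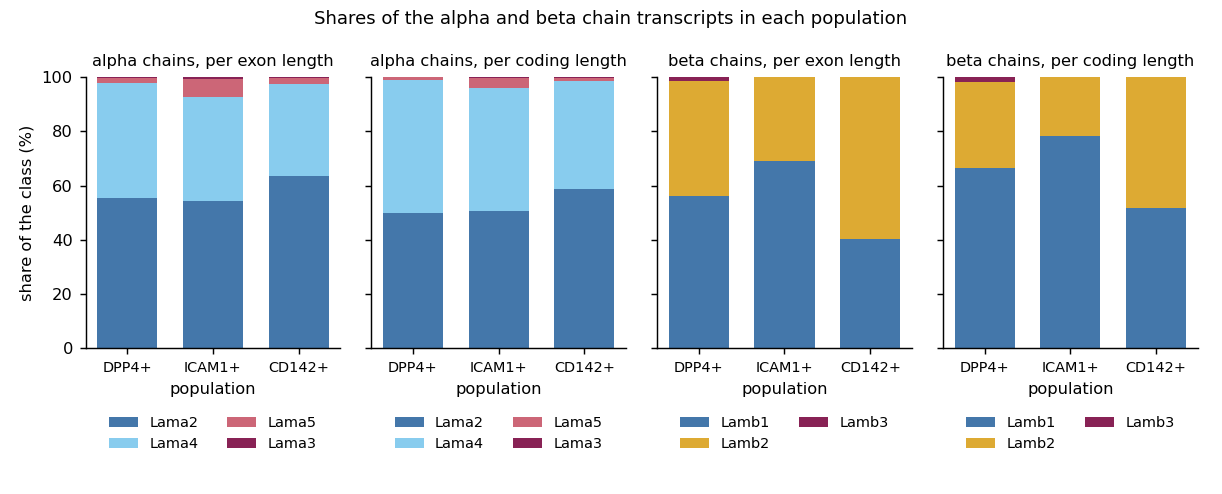
Share (%) of each alpha and beta chain in the transcripts of its class in DPP4+, ICAM1+ and CD142+ cells, per kb of exon and per kb of coding sequence. Lamb2 makes up 59.8% of the beta chains in CD142+ and 30.7% in ICAM1+ cells per kb of exon (48.1% and 21.7% per kb of coding sequence), and Lama5 takes its largest alpha share in ICAM1+ cells on both lengths.

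Type IV collagen forms the network to which the laminin sheet is tied. Of its 6 chains 5 were higher in ICAM1+ than in DPP4+ cells and 5 in CD142+ than in DPP4+ cells, with median log2 fold changes of 1.64 and 2.60, against -0.02 and -0.11 for the laminin chains. Col4a2 had 2.44 ± 0.11 and 2.23 ± 0.11 in these comparisons, while Lama2, Lama4, Lamb1, Lamb2 and Lamc1 had values between -0.71 and 0.34 and Lama5 had 1.84 and 0.01. Col4a3 had 3.94 ± 0.31 in CD142+ against DPP4+ cells and -2.76 ± 0.27 in ICAM1+ against CD142+ cells. In ICAM1+ against CD142+ cells 1 collagen chain was higher and 2 lower (median -0.45, against 0.49 for the laminin chains). Over all tested genes 12.4% were called higher in ICAM1+ and 10.1% in CD142+ against DPP4+ cells. In ICAM1+ against CD142+ cells 3.77% were called higher and 5.28% lower.

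Other basement membrane components moved in both directions. Of 18, 10 were higher and 5 lower in ICAM1+ against DPP4+ cells, 8 higher and 4 lower in CD142+ against DPP4+ cells, and 8 higher and 5 lower in ICAM1+ against CD142+ cells. The medians were 0.75, 0.35 and 0.49. Over all tested genes, 12.4%, 10.1% and 3.77% were called higher and 12%, 8.91% and 5.28% lower in the same comparisons. Col15a1, a collagen at the outer face of the sheet, had 2.70 ± 0.14 and 2.04 ± 0.14 against DPP4+ cells. Ntn4, a netrin that binds laminin gamma chains, was lower in ICAM1+ than in DPP4+ cells (-2.78 ± 0.24) and was highest in DPP4+ cells, as Lamb3 was. Egflam, or pikachurin, which binds dystroglycan, had 3.85 ± 0.21 in CD142+ against DPP4+ cells and -1.94 ± 0.19 in ICAM1+ against CD142+ cells, both called. Nid1, the nidogen that links the laminin gamma chain to collagen, was named after its values were seen. It had -0.77 ± 0.11 in ICAM1+ and -0.96 ± 0.11 in CD142+ against DPP4+ cells (adjusted p = 2.5e-11 and 3.78e-17), and so was lower in CD142+ cells as Lamc1 was.

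Receptors for laminin on the cell surface were more often higher than lower in ICAM1+ cells, with 7 of 12 higher and 2 lower against DPP4+ cells (median 0.84), and 5 higher and 1 lower against CD142+ cells (median 0.58). In CD142+ against DPP4+ cells 5 were higher and 1 lower (median 0.16). Over all tested genes, 12.4%, 3.77% and 10.1% were called higher and 12%, 5.28% and 8.91% lower in these comparisons, in the order given. Itga7, the integrin alpha chain paired with laminin in muscle, had 2.66 ± 0.18 in ICAM1+ and 1.56 ± 0.18 in CD142+ against DPP4+ cells. Itga1, which also binds collagen, had 2.27 ± 0.18 and 1.35 ± 0.18. Bcam, a receptor known to bind the Lama5 product, was higher in ICAM1+ than in CD142+ cells by 1.03 ± 0.23 (adjusted p = 0.000147) and had 0.00 ± 0.23 in CD142+ against DPP4+ cells, the same order of populations as Lama5. Itga2, a collagen and laminin receptor, was lower in CD142+ than in DPP4+ cells (-1.96 ± 0.20).

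The shared beta subunit Itgb1 and the dystroglycan gene Dag1, named after their values were seen, were not called in any comparison. Itgb1 had -0.07 ± 0.10 and -0.03 ± 0.10, and Dag1 -0.20 ± 0.11 and -0.02 ± 0.11, in ICAM1+ and CD142+ against DPP4+ cells. Enzymes that build the laminin-binding sugar on dystroglycan gave 3 lower and no higher calls of 12 measured in ICAM1+ against DPP4+ cells (median -0.31), about the 24.4% called over all tested genes. They were B4gat1 (-0.86 ± 0.18), B3galnt2 (-0.61 ± 0.16) and Rxylt1 (-0.57 ± 0.18), of which B4gat1 shares 85.3% of its exon bases with another annotated gene on the same strand. In CD142+ against DPP4+ cells 0 of 12 were called by the deposited DESeq2 test (1 at an unadjusted p below 0.05, median -0.20), and in ICAM1+ against CD142+ cells 1 was lower, B4gat1, about the 9.05% of all tested genes.

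The dystrophin complex, which ties dystroglycan to the cytoskeleton, had 3 higher and 4 lower of 12 measured in ICAM1+ against DPP4+ cells, 4 higher and 4 lower in CD142+ against DPP4+ cells, and 3 lower in ICAM1+ against CD142+ cells (medians -0.15, 0.12 and 0.01). Over all tested genes, 24.4%, 19% and 9.05% were called in either direction in the same comparisons. Dmd, which encodes dystrophin, was higher in ICAM1+ and CD142+ cells than in DPP4+ cells, by 0.98 ± 0.20 and 0.94 ± 0.20.

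**Figure D5:**
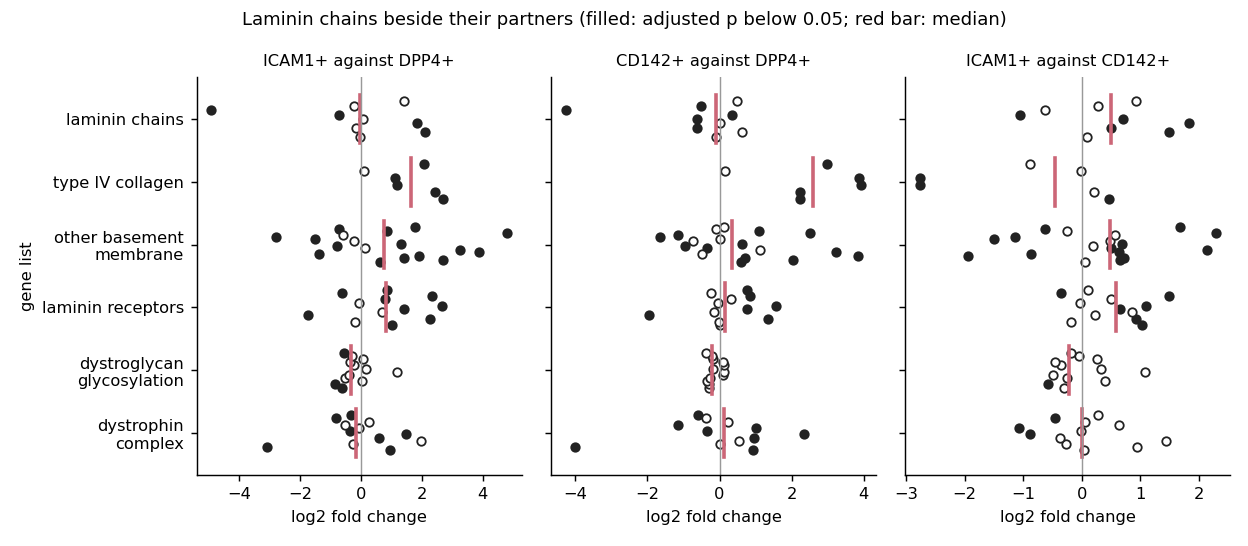
Log2 fold change of each gene in the laminin chain list and 5 lists of partners, in the 3 comparisons, with filled points for an adjusted p below 0.05 and a red bar for the list median. The collagen medians of 1.64 and 2.60 against DPP4+ cells lie to the right of those of the laminin chains (-0.02 and -0.11). The scale of the horizontal axis differs between panels.

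Last, the genes most like each abundant chain were listed by the distance between their pairs of log2 fold changes against DPP4+ cells, over the 7943 other genes whose mean reached 100. The pattern of Lama2 was common, with 1591 genes within a distance of 0.2, the nearest being Zhx1. Lamc1 had 325 such genes, led by Sbno2, and Lama4 had 66, led by Fjx1 and Hbegf. Lamb1 had 26, led by Gm38314 and Mast4, and Lamb2 had 15, led by Wnt5a. Lama5 had 2, which were Tinagl1 (distance 0.115) and Dlk1 (0.179). Tinagl1, a basement membrane protein, had log2 fold changes of 1.79 and 0.12 in ICAM1+ and CD142+ against DPP4+ cells, and Dlk1, known as a preadipocyte factor, had 1.86 and 0.19. The likeness rests on 2 fold changes that share the DPP4+ libraries and carries no test.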

How the data were processed

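RNA of 9 libraries, 3 per population, was sequenced from both ends after oligo(dT) selection and random priming. Per the labels no step marked the strand. The submitters' processing notes name STAR 2.5.2a, mm10, R 3.5.1 and DESeq2 without a version. The annotation release is not given in the sources read. Deposited by the authors were tables that hold, for each of 3 comparisons, a mean signal over libraries (normalised counts), a log2 fold change with its SE (both log2), the Wald statistic (a score), and p-values with Benjamini-Hochberg adjustment, from a fit the authors made with DESeq2. Rows that name no gene (4 of 20659) held 59.6% of the summed means and were left out. The depth of each library is unknown.

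The 3 tables had identical means, and fold changes added up within 0.01 for 20612 of 20655 genes, so they were read as 1 fit. Genes were called at the deposited adjusted p below 0.05, and no model was refitted. Fitted levels, their intervals (the SE of a population follows from the 3 pairwise SE), and levels per kb of exon (GENCODE M21, same identifier versions for 9 of 9 chains) were computed in Python 3.11.15 with pandas 2.3.3 and scipy 1.17.1. The adjustment and Wald code was tested on simulated data.

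Members and lists were chosen with earlier results of these data known. From each other list, the rule names up to 3 called genes per comparison with a mean of at least 100, taken by size of the log2 fold change, or the 2 with the highest mean where fewer than 2 passed, and for each abundant chain the 3 nearest genes. Those described are part of these, and Nid1, Itgb1, Dag1 and the markers lie outside. Some items are not reported here.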

Additional observations from a re-analysis of the deposited data

How the results depend on the processing

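No paired analysis was possible because the tables used here carry no values per library, and for the same reason no library could be left out. The chain shares with lengths from RefSeq proteins were not run. The number of chains called in ICAM1+ against DPP4+ cells was 2 rather than 4 when p was adjusted over genes whose mean reached 100, since Lama3 and Lamb3 are below that mean, and the other comparisons then gave 4 and 5, with Lama3 out and Lamc1 in for ICAM1+ against CD142+ cells. Requiring an absolute log2 fold change above 1 left 3 of 4 chains in ICAM1+ against DPP4+ cells, 1 of 5 in CD142+ against DPP4+ cells (Lamb3) and 3 of 5 in ICAM1+ against CD142+ cells. Testing against a log2 fold change of 1 left 3, 1 (Lamb3) and 1 (Lama5). The other settings (adjusted p of 0.01 or 0.1, adjustment over every gene or over means from 10, and re-centring on the median over means from 100, which moved fold changes by at most 0.07) kept each count within 1.5 times. Directions of called chains could not change in them. Only re-centring alters a fold change, and by less than the smallest called one (0.34, Lamb2 in CD142+ against DPP4+ cells). At 0.01 Lamb2 was lost in CD142+ against DPP4+ cells, and at 0.1 Lamc3 in ICAM1+ against DPP4+ and Lamc1 in ICAM1+ against CD142+ cells were gained. Coding length, chosen after seeing the data, moved 6 of 27 shares by over 1.5 times, those of Lama3 and Lama5.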
